A study of Mus musculus with 150 samples.

Results

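The bins of chromosome 8 were described in single cells of 3 lung tumours, named T1, T7 and T9, that had been dissected from 1 mouse 30 weeks after tumour induction. All rows of the deposited log2 ratio table that lie on chromosome 8 were taken, which gave 252 of the 5331 bins of the table and of the 4806 bins on chromosomes 1 to 19. All 252 had values in enough cells to be used. They span 3000001 to 129301213 on GRCm38, a length of 126 Mb, with a median bin length of 501 kb. All 3 tumours came from the KP model, which carries the Trp53flox/flox allele together with the Rosa26LSL-tdTomato and Rosa26LSL-Luciferase reporters on a mixed C57BL/6 and Sv129 background. In this model a recombinase deletes the floxed part of Trp53 in infected cells. The labels name AdSPC-Cre and AdCMV-FlpO as viruses for tumour induction without saying which one this mouse received, and AdSPC-Cre limits Cre to cells in which the surfactant protein C promoter is active. The cells are labelled as AT2 cells, the alveolar type 2 cells that make lung surfactant, and DNA copy number cannot check that label. No untreated or normal cells were among the samples analysed here.

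From each tumour 50 cells were sequenced, and a limit on noise left 47 T1 cells, 48 T7 cells and 50 T9 cells. The median sequenced amount was 97.7 Mb for T1 cells, 69.3 Mb for T7 cells and 56.7 Mb for T9 cells. A chromosome 8 bin thus held a median of 20.6 kb, 12.6 kb and 11.3 kb of sequence in T1, T7 and T9. The median bin-to-bin noise was 0.19, 0.15 and 0.13 on the log2 scale in the same order, so the deepest tumour was also the noisiest. Levels are relative to the median bin of chromosomes 1 to 19 in the same cell, so a level of 0 means the same copy number as the middle of that cell's autosomes. On this scale 3 copies against 2 give 0.58 and a doubling gives 1. A level was called gained at 0.32 or more, the log2 ratio of 2.5 copies over 2, and lost at -0.42 or less, that of 1.5 copies over 2. Cells of a tumour share their origin, and every tumour is 1 sample, so differences between tumours have no replicate and carry no test. Intervals for shares of cells are exact 95% Clopper-Pearson intervals and cover counting error only.

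Copy number in tumours changes through missegregation of whole chromosomes and through breaks that gain or lose a stretch. A change that many cells share at the same ends is usually inherited from a common ancestor cell, while changes with ends of their own arise later or separately. Mouse chromosomes carry the centromere at their start, so the first bins of chromosome 8 lie beside the centromere and the last ones beside the far telomere. Trp53 lies on another chromosome.

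The 3 stretches of chromosome 8 that were gained in at least 20% of T1 cells are each marked here by 100 bases directly before the start of a gene they hold. The genes are Irs2 (minus strand) in the stretch near the centromere, Vegfc (plus strand) in a small stretch near the middle and Irf8 (plus strand) in the stretch at the far end. The sequences are from RefSeq on GRCm38.p6, and capitals mark CG pairs.
Irs2 (chr8:11008930-11009029): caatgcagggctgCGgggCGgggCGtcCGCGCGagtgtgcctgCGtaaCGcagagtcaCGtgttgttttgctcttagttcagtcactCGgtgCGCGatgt
Vegfc (chr8:54077432-54077531): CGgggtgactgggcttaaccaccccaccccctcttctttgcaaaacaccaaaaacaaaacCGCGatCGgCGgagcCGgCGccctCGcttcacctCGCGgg
Irf8 (chr8:120736258-120736357): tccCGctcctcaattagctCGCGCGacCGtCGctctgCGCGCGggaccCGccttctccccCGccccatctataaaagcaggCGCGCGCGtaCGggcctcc
The CG pair, searched as the letters CG, reads the same on the opposite strand. The counts of these pairs were 12, 10 and 16, against a median of 3 (quartiles 1 and 8) in the same 100 bases of the 1442 chromosome 8 promoters of the table, of which 80.7% held at least 1. They serve as landmarks only, since a bin is far longer than a printed stretch and its level says nothing about the promoter itself.

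In T1 the start of chromosome 8 was the most variable of its 3 windows and held the highest single cells. Over the first 20 Mb (3000001 to 22840991, 41 bins), the level of a cell ranged between 0.05 and 1.01 in T1 with a median of 0.26 ± 0.31 (SD, n = 47 cells). The same bins ranged between -0.15 and 0.12 in T7, with a median of -0.01 ± 0.05 (SD, n = 48 cells). In T9 they ranged between -0.18 and 0.27, with a median of 0.06 ± 0.07 (SD, n = 50 cells). All 47 T1 cells were above 0, against 16 of 48 T7 cells and 42 of 50 T9 cells. The start was called gained in 16 of 47 T1 cells (34.0%, interval 20.9 to 49.3) and in none of the T7 or T9 cells, where exact intervals of a count of 0 reach 7.4% and 7.11% of cells. With a looser threshold of 0.2 the T1 share was 74.5%. The SD over cells of the first 20 Mb ranked 1st among the 19 autosomes in T1, where the other autosomes gave 0.08 to 0.24, and 19th in both T7 and T9. Noise, which could widen the spread, was higher in T1 than in the other tumours, and its part in the result was not tested.

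In T1 the middle of the chromosome had a lower median than the start and the end, yet it was above 0 in 31 of 47 cells. It was above 0 in 21 of 48 T7 cells and in 42 of 50 T9 cells. Over the central 20 Mb (56360244 to 76152563, 39 bins), T1 cells had a median level of 0.12 ± 0.13 (SD, n = 47 cells) and a range of -0.19 to 0.25. T7 cells had a median of -0.00 ± 0.05 (SD, n = 48 cells) and a range of -0.14 to 0.13. T9 cells had a median of 0.07 ± 0.09 (SD, n = 50 cells) and a range of -0.12 to 0.35. The groups overlap, and 1 T9 cell was the only one of the 145 with the middle called gained.

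The end of the chromosome stood above the middle in nearly all T1 cells. Over the last 20 Mb (109245119 to 129301213, 40 bins), T1 cells had a median level of 0.26 ± 0.13 (SD, n = 47 cells), with a range of -0.15 to 0.46. T7 cells had a median of -0.01 ± 0.06 (SD, n = 48 cells), with a range of -0.11 to 0.17. T9 cells had a median of 0.04 ± 0.11 (SD, n = 50 cells), with a range of -0.27 to 0.26. Within cells, the end was higher than the middle in 45 of 47 T1 cells by a median of 0.17, in 22 of 48 T7 cells and in 15 of 50 T9 cells. The end was called gained in 15 of 47 T1 cells (31.9%, interval 19.1 to 47.1) and in none of the T7 or T9 cells. That share turns on the scale, since it was 83.0% with the ratio taken from depth alone, where the median level of the T1 end was 0.58, and 12.8% with cells centred on the mode of their autosomal bins. The start was higher than the end in 16 of 47 T1 cells and lower in 31, with a median difference of -0.05. No cell of the 145 had the start, middle or end called lost.

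**Figure D1:**
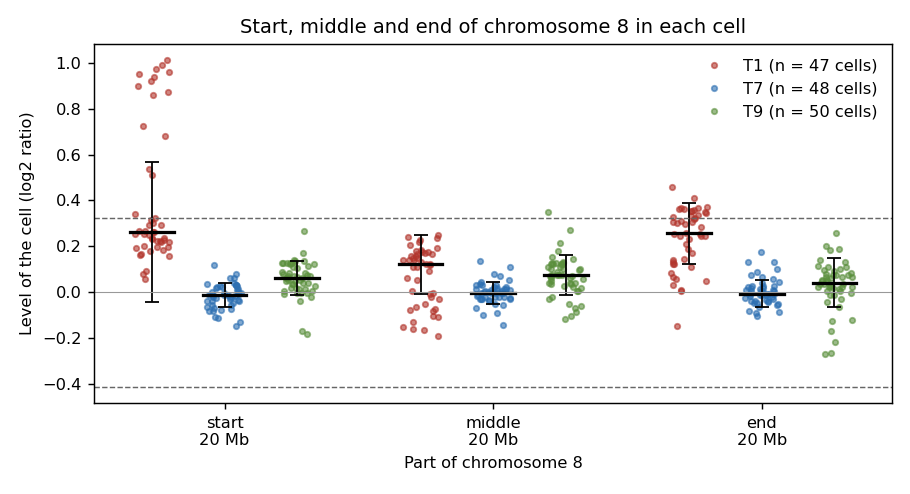
Level of the first, central and last 20 Mb of chromosome 8 (log2 ratio, each cell centred on its autosomal median) in T1, T7 and T9. Points are cells, thick bars are medians, thin bars are ± 1 SD over cells, and dashed lines mark the calls at 0.32 and -0.42. T1 cells reach 1.01 at the start and 0.46 at the end, whereas T7 cells reach 0.12 and 0.17.

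Bin by bin, 75 of the 252 chromosome 8 bins (29.8%) lay in a gained segment in at least 20% of T1 cells, against a background of 10.1% of all autosomal bins. None lay in a lost segment in that many T1 cells, against a background of 20.7%. In T7 the counts were 0 gained and 0 lost bins, beside 13.9% and 2.79% of the autosomal bins. In T9 they were 5 gained bins (1.98%) and 0 lost bins, beside 7.2% and 4.66%. Chromosome 8 therefore held more recurrent gain than the autosomes at large in T1 and less in T7 and T9. The T1 count depends on the setting, as it was 115 bins from depth, 41 bins with centring on the mode and 37 bins with a higher penalty on breaks.

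**Figure D2:**
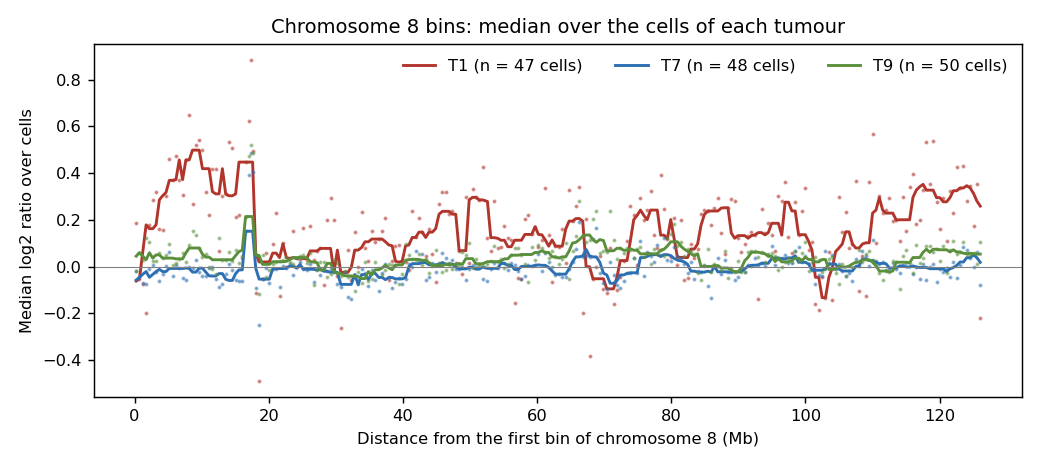
Median log2 ratio over cells of each of the 252 bins (points) and its running median over 7 bins (lines), against the distance from the first bin of chromosome 8 in Mb. The T1 line is highest near the start and rises again over the last 17.05 Mb. The short peak in all 3 tumours near 17 Mb comes from 4 bins that read high in every tumour.

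The short peak lay in bins with unusual properties. The 4 bins between 19308919 and 20712178, 3 of which are at most 254 kb long, read high in all tumours, with bin medians of 0.45 to 0.88 for T1, 0.15 to 0.49 for T7 and 0.21 to 0.52 for T9. They list mainly predicted genes, next to a bin that lists Defa24, a member of the defensin family of antimicrobial peptides, whose genes lie here in many similar copies. The 3 short bins also had low deposited weights of 0.52 to 0.54. The T9 stretch of 5 gained bins (19308919 to 21319381) is this peak, called in 19 of 50 T9 cells, 8 of 48 T7 cells and 22 of 47 T1 cells. How far multiple copies or mapping enter into this signal was not tested. Break counts and recurrent break positions are given with and without these bins. Window levels, gained stretches, counts of gained bins, gene calls and counts of cells gained together are given on all bins.

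The gained stretch at the start of chromosome 8 in T1 ran from 3000001 to 20712178 (17.7 Mb, 37 bins, 122 protein-coding genes). It was gained over most of its length in 21 of 47 T1 cells (44.7%, interval 30.2 to 59.9) and in none of the T7 or T9 cells. Its level was 0.29 ± 0.31 in T1 (SD, n = 47 cells), with 1.04 as the highest, against -0.01 ± 0.06 in T7 (SD, n = 48 cells) and 0.07 ± 0.07 in T9 (SD, n = 50 cells). This stretch and the other gained T1 stretches below were each picked by calls in T1 cells. Their T1 shares and levels, and the contrast with T7 and T9, are therefore descriptions and not separate evidence. The share of T1 cells was 25.5% with the ratio taken from depth and 29.8% with stricter thresholds. These shares include the 4 high bins, which close the stretch. Cells 180007, 180011, 180012, 180017 and 180024, among those called, had start segments at 0.34 to 0.39. Each had 3 breaks on all bins and 1 break without the 4 high bins.

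Inside this stretch the level was uneven. The following subdivision was drawn after the breaks had been seen and is a description. The first 5 bins (3000001 to 5471048), beside the centromere, had a T1 median of -0.01 ± 0.23 (SD, n = 47 cells), and 7 cells reached the level of a gain there. The core from 7447887 to 15355241 (16 bins, 55 protein-coding genes) had a T1 median of 0.38 ± 0.38 (SD, n = 47 cells). Its lowest T1 cell was at 0.08 and its highest at 1.27, which is 2.41 times the autosomal median. By the median of its bins, the core was at or above 0.32 in 34 of 47 T1 cells, against 0 of 48 T7 cells and 0 of 50 T9 cells, whose highest cells were at 0.22 and 0.26. Beyond the core, from 15355242 to 19308918, the T1 median was 0.24 ± 0.30 (SD, n = 47 cells).

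**Figure D3:**
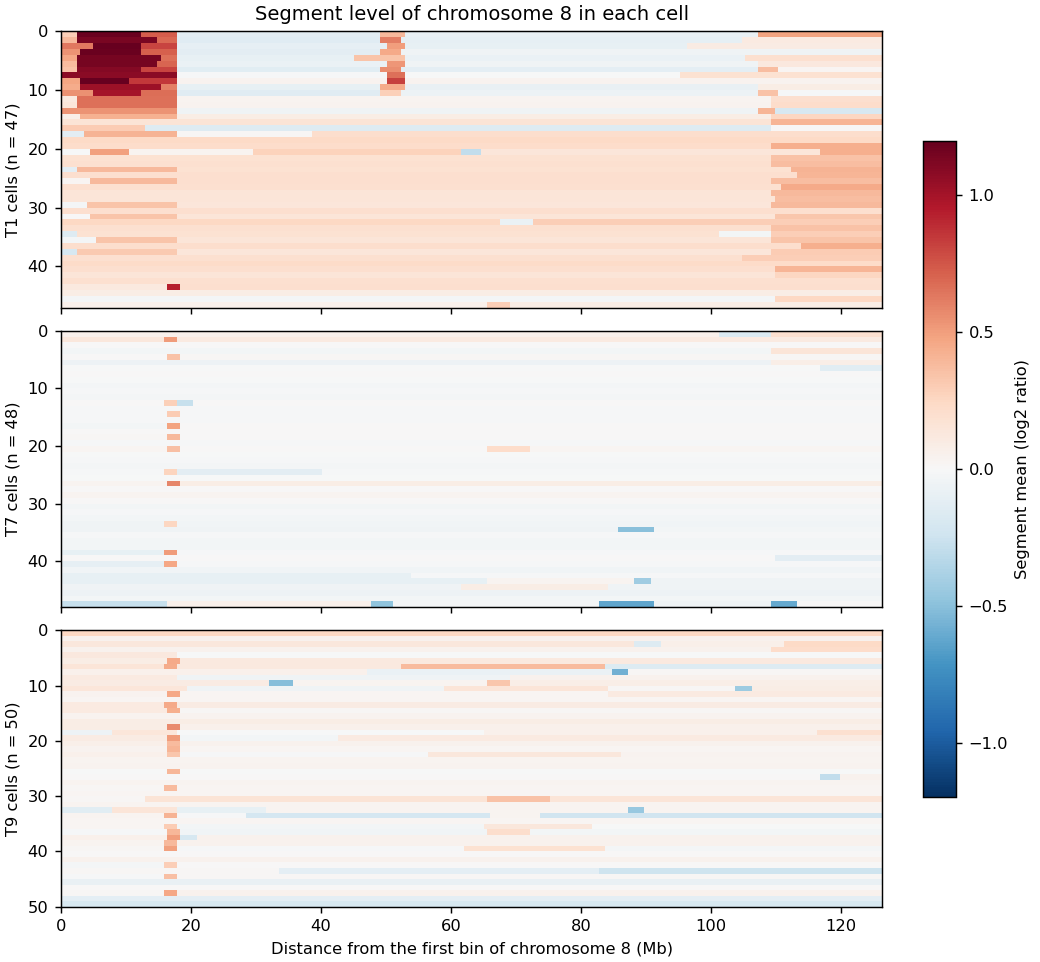
Segment means (log2 ratio, colour) along chromosome 8, with 1 row per cell and the cells of each tumour ordered from the highest core level down, T1 above T7 and T9. The horizontal axis is the distance from the first bin in Mb. T1 rows at the top carry a strong gain at the start and a short one near 50 Mb, many T1 rows carry a gain at the far end, and a narrow mark near 17 Mb recurs in T7 and T9.

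A second, much shorter gain lay near the middle of the chromosome in T1 and is called the island here. It covered 53127347 to 55123712 (2.00 Mb, 4 bins, 11 protein-coding genes) and was gained in 10 of 47 T1 cells (21.3%, interval 10.7 to 35.7). Its level was 0.32 ± 0.20 in T1 (SD, n = 47 cells), with 0.95 as the highest. In T7 the level was -0.01 ± 0.13 (SD, n = 48 cells) and in T9 it was 0.01 ± 0.11 (SD, n = 50 cells), with no cell called. The island is as short as the segmentation can resolve, and its share of T1 cells was 4.26% from depth, 10.6% with the higher penalty and 2.13% with segments of at least 10 Mb. Several cells, among them 180018 and 180035, had a wider segment than these 4 bins, so the island was also taken as 6 bins (52129165 to 55123712). Set against flanks between 40 and 66 Mb, these 6 bins were at least 0.3 higher in 13 of 47 T1 cells and in 0 T7 and 0 T9 cells. The difference from the flanks computed from depth followed that from the log2 ratio across T1 cells (Pearson's r 0.95, n = 47 cells that share their bins), although the T1 median of the difference was 0.12 by log2 ratio and -0.07 by depth. Both measures come from the same cells and bins, and these bins were bounded by breaks seen in T1 cells. The correlation and the count of 13 cells are therefore descriptions and not separate evidence for the island.

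The gained stretch at the far end ran from 112253533 to 129301213 (17.05 Mb, 34 bins, 153 protein-coding genes) and was gained in 18 of 47 T1 cells (38.3%, interval 24.5 to 53.6). Its level was 0.29 ± 0.15 in T1 (SD, n = 47 cells), with a range of -0.19 to 0.48. In T7 it was -0.01 ± 0.07 (SD, n = 48 cells) and in T9 0.05 ± 0.12 (SD, n = 50 cells), and no cell of either was called. Unlike the start, the far end differed little between T1 cells relative to the long middle (56360244 to 109746521). The far end minus the middle was 0.16 ± 0.10 in T1 (SD, n = 47 cells), above 0 in 45 of 47 cells, and its quartiles were 0.10 and 0.19. In T7 that difference was -0.02 ± 0.07 (SD, n = 48 cells) and in T9 -0.01 ± 0.09 (SD, n = 50 cells). A step of this size is smaller than the 0.58 of 1 copy added to 2. Computed from depth the difference was 0.52 ± 0.20 in T1 (SD, n = 47 cells, -0.09 to 1.0), -0.02 ± 0.21 in T7 (SD, n = 48 cells, -0.17 to 0.71) and -0.06 ± 0.14 in T9 (SD, n = 50 cells, -0.39 to 0.56). An upward break at the same bin was also found in T7 cells 180052, 180053 and 180061 and in T9 cell 180146. The steps were 0.14, 0.36, 0.18 and 0.17 in that order. These T7 cells had 122, 140 and 123 Mb of sequence and noise of 0.17, 0.17 and 0.19, against T7 medians of 69.3 Mb and 0.15. The T9 cell had 82.1 Mb and noise of 0.19, against T9 medians of 56.7 Mb and 0.13. The part of depth and noise in this rise was not tested. The share of cells called was 83.0% from depth, 17.02% with centring on the mode and 14.9% with the higher penalty, so many T1 cells lie near the threshold.

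Breaks, the borders between neighbouring segments of a cell, were most frequent in T1. T1 cells had 2.72 ± 2.11 breaks on chromosome 8 (SD, n = 47 cells, range 0 to 7), and 42 of 47 had at least 1 (89.4%). T7 cells had 1.02 ± 1.42 (SD, n = 48 cells, range 0 to 7), and 22 of 48 had at least 1 (45.8%). T9 cells had 1.86 ± 1.63 (SD, n = 50 cells, range 0 to 5), and 33 of 50 had at least 1 (66%). Over all pairs of an autosome and a cell, the share with at least 1 break was 79.3% for T1, 49.8% for T7 and 68.1% for T9, which lies near the shares of chromosome 8 on all bins. Per 100 Mb and on all bins, chromosome 8 ranked 2nd of 19 autosomes in T1, with 2.16 breaks a cell against a median of 1.39 over the others, 9th in T7 and 8th in T9.

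The 4 bins that read high everywhere made a large part of the breaks in T7 and T9. Without them the means were 2.40 for T1, 0.48 for T7 and 0.98 for T9, and cells with at least 1 break were 43 of 47 (91.5%), 11 of 48 (22.9%) and 21 of 50 (42%). The shares in T7 and T9 were then below the all-autosome shares of those tumours. The rank of chromosome 8 per 100 Mb became 6th in T1, with 1.90 breaks a cell, 18th in T7 and 14th in T9. Breaks also depended on the penalty, with means of 4.72, 2.92 and 3.98 in T1, T7 and T9 at the lower penalty and 1.40, 0.19 and 0.46 at the higher one. T1 stayed the highest of the tumours under both. Across cells, the number of breaks had a Spearman's rho of -0.19 with noise in T1 (n = 47 cells), -0.15 in T7 (n = 48 cells) and 0.01 in T9 (n = 50 cells) on all bins. Without the 4 bins it was -0.22 for T1, 0.20 for T7, where the sign turned, and 0.09 for T9.

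**Figure D4:**
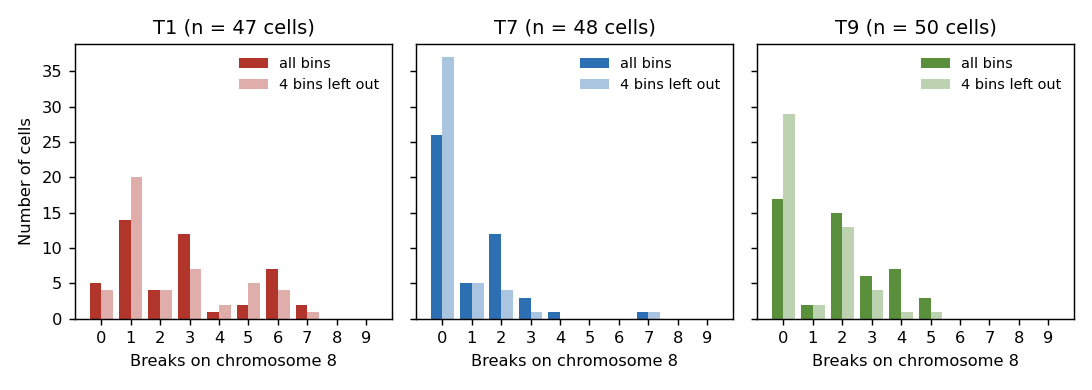
Number of cells (vertical axis) with each number of breaks on chromosome 8 (horizontal axis) in T1, T7 and T9, with all bins (dark bars) and with the 4 bins that read high in every tumour left out (pale bars). T1 has 9 cells with at least 6 breaks on all bins. Cells with no break number 37 in T7 and 29 in T9 once the 4 bins are left out.

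Recurrent break positions in T1 lay at borders of the gained stretches and inside the start stretch. The stretches were drawn from segments of the same cells. Their borders therefore follow from these breaks, and the match is not separate evidence. A step within 5 bins of 112253533 occurred in 29 of 47 T1 cells (61.7%), nearly always upward along the chromosome, with a median size of 0.19. A step near 5471049 occurred in 22 of 47 cells, always upward, with a median of 0.53, and marks the passage from the first bins into the core. Without the 4 bins it was found in 18 of 47 cells. A downward step near 15355242, with a median of -0.45, occurred in 12 of 47 cells on all bins and was not a recurrent position of its own without the 4 bins. The fall at the end of the stretch was placed near 20812179 in 23 of 47 cells, with a median of -0.66. Without the 4 bins it was placed near 18814709 in 18 of 47 cells, with a median of -0.88, so its exact position is uncertain. Steps around 55852978, the far border of the island, occurred in 11 of 47 cells. In T7 the only recurrent position was the peak near 19308919 (13 of 48 cells), and none recurred without the 4 bins. In T9 the peak recurred near 20812179 in 26 of 50 cells, and without the 4 bins a small upward step near 68534622, with a median of 0.18, was found in 10 of 50 cells (20%).

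The T1 cells with the most breaks showed how the parts fit together within a cell. Cell 180018, which had the lowest middle of T1 (-0.19) and 6 breaks, lay at 0.39 over the first bins. From 5471049 it lay at 1.14, from 17826290 at 0.69 and from 20812179 at -0.14. It then stood at 0.61 over the island from 52129165, at -0.11 from 55345713 and at 0.11 from 107740912. Cells 180035 and 180047, with 7 breaks each, followed nearly the same path, with 1.10 and 1.0 over the core. After the long middle both had a short segment from 110247924 to 113256337 at 0.37 and 0.35, and then returned to 0.02 and -0.02. Cell 180002 had the highest end of T1 (0.46) and joined a core segment at 1.19 with a far end at 0.48. Cell 180039 had the highest start (1.01), cell 180016 the lowest (0.05), and cell 180027 the highest middle (0.25). Cell 180001 had the lowest end, at -0.15, with its start stretch at 0.54 and a gained segment of 2.51 Mb at 0.41 just before the far end.

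The start, the island and the far end were set side by side over the 47 T1 cells. All 10 cells with the island gained also had the start stretch gained, and 11 cells had the start stretch without the island. By segment calls, the start and far-end stretches were gained together in 6 cells, the start without the far end in 15, the far end without the start in 12 and neither in 14. The 6 cells include 180007, 180011, 180012, 180017 and 180024, whose start segments lay at 0.34 to 0.39. Their breaks fell from 3 to 1 each without the 4 high bins, so this joint count is uncertain. The island and the far end were gained together in 1 cell. By the median of bins the picture of start and far end differed, as 17 of the 21 cells with the far end at 0.32 or more also had the core at 0.32 or more, as did 34 of all 47 cells. Of the 10 cells with the core at 1 or more, 1 had the far end at 0.32 or more. In these 10 cells the far end was still 0.08 to 0.56 above the long middle. Of the 10 T1 cells with the core at 1 or more, 9 had the long middle below 0. The long middle was at 0.1 or more in 28 T1 cells, and none of these had the core at 1 or more. Both levels are relative to the same autosomal median of the cell.

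**Figure D5:**
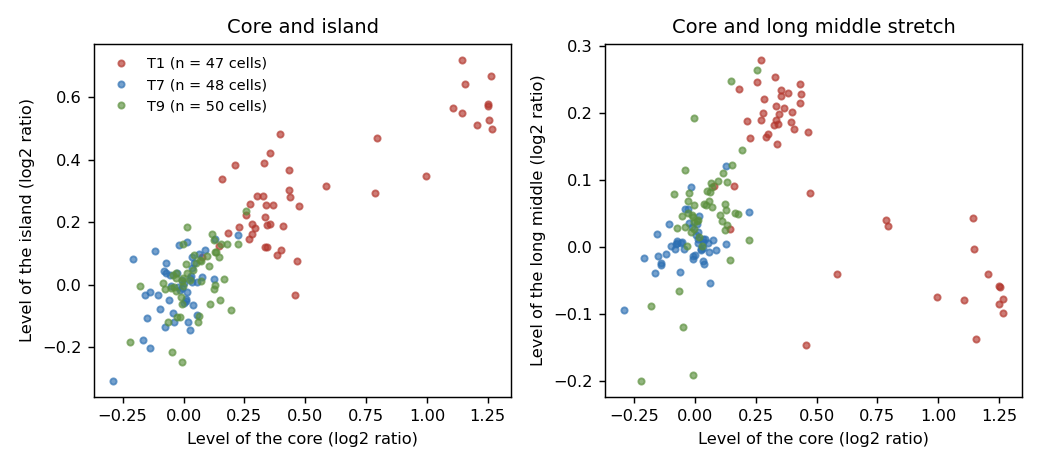
Level of the core (horizontal axis, log2 ratio) against the level of the island as bounded by the breaks of single cells (52129165 to 55123712, left) and of the long middle (right), with 1 point per cell. The 10 T1 cells with the core at 1 or more have an island between 0.50 and 0.72 and a long middle of at most 0.04. T7 and T9 cells lie near 0 in both panels.

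Chromosomes other than 8 sorted T1 cells in a related way. A whole chromosome was called by the median of its bins. Of the 13 T1 cells with chromosome 10 lost, 11 had the start stretch gained, 10 the island and 1 the far end. The far-end call depends on the level of the chromosome against the autosomal median. In these 10 island cells the far end minus the long middle was 0.08 to 0.56, against a T1 median of 0.16. Their long middle was at most 0.04, against a T1 median of 0.17. Few far-end calls thus do not mean that the rise was absent there. Of the 9 cells with chromosome 13 lost, all 9 had the start stretch gained, all 9 the island and 1 the far end. Of the 7 cells with chromosome 18 gained, 6 had the start stretch, 6 the island and 1 the far end. The loss of chromosome 4, by contrast, was present in 45 of 47 T1 cells and so did not separate them. These are counts of cells of 1 tumour and were not tested.

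Apart from the peak, T7 and T9 had no stretch called gained or lost in at least 20% of cells. A small upward step near 68534622 did recur in T9, in 10 of 50 cells without the 4 high bins. Outside the peak and its neighbouring bins (18814709 to 21319381), T7 had 5 called segments, all lost, in 3 cells, and T9 had 3 gained and 4 lost segments in 6 cells, whereas T1 had 72 called segments, all gained, in 33 cells. T7 cell 180086, with the most breaks of its tumour (7), had lost 50631891 to 54125529 (level -0.48), 85679209 to 94203048 (-0.63) and 112253533 to 116264751 (-0.61). The second of these losses overlapped losses in cells 180091 (88687623 to 94203048, -0.50) and 180097 (91194635 to 93701645, -0.42). These 3 T7 cells are 6.25% of the tumour. In T9, cell 180124 had gained 55345713 to 86682012 (31.3 Mb, 0.38), the longest called segment there, and also had the highest middle (0.35). Cell 180130 had gained 68534622 to 78158172 (0.35), inside that span. Cell 180122 had lost 35061374 to 38624125 (-0.51) and gained 68534622 to 72085481 (0.34), which starts at the same bin. Raised segments below the threshold of a gain also started there. T1 cell 180021 had one with the ends of the gain of cell 180122 (0.30). T7 cell 180078 and T9 cell 180111 shared the ends 68534622 and 75149758 (0.22 and 0.21).

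The genes named next come from 8 lists of 69 chromosome 8 genes, grouped by role. A gene takes the level of the segment around it, so genes in the same segment share their values and are not separate observations. In T1, 20 of the 69 genes (close to the 29.8% of chromosome 8 bins) lay in a gained segment in at least 20% of cells, and none lay in a lost one. In T7 and T9 the counts were 0 gained and 0 lost. Over all 69 genes the median level was 0.15 for T1, -0.01 for T7 and 0.03 for T9.

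Of the 14 growth factor and kinase signalling genes, 5 were gained in that share of T1 cells. Irs2, an adaptor that carries signals from the insulin and IGF1 receptors, lies at 10984681 to 11008929 in the core, and its level in T1 was 0.30 ± 0.40 (SD, n = 47 cells) with a range of -0.03 to 1.27. It was gained in 22 of 47 T1 cells (46.8%). In T7 its level was -0.02 ± 0.06 (SD, n = 48 cells), and in T9 it was 0.04 ± 0.07 (SD, n = 50 cells). Efnb2, a membrane ligand of Eph receptors, shared the T1 values of Irs2. Insr, the insulin receptor, and Map2k7, a kinase that activates JNK, lie in the first bins. By segment they were gained in 11 of 47 T1 cells at 0.19 ± 0.23 (SD, n = 47 cells). In cells without a break nearby that segment reaches far beyond the first bins. The first 5 bins alone had a T1 median of -0.01, with 7 of 47 cells at the level of a gain. Vegfc, a growth factor for lymphatic vessels, lies in the island at 54077532 to 54186454 and was gained in 10 of 47 T1 cells at 0.20 ± 0.19 (SD, n = 47 cells). Ikbkb, a kinase of the NF-kappa-B pathway that lies just beyond the start stretch, shared the lowest T1 level of the list, 0.15, with other genes and was gained in no T1 cell.

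Of the 8 DNA repair and telomere genes, 4 were gained. Lig4, the ligase of non-homologous end joining, lies in the core with the T1 values of Irs2. Mcph1, a DNA damage response protein, lies behind the core and was gained in 21 of 47 T1 cells at 0.24 ± 0.27 (SD, n = 47 cells). Neil3, a glycosylase that removes oxidised bases, shares the island and the T1 values of Vegfc. Fanca, a subunit of the Fanconi anaemia core complex, lies in the far end and was gained in 18 of 47 T1 cells at 0.25 ± 0.16 (SD, n = 47 cells). Polb, the polymerase of base excision repair, was the lowest of the list in T1, at 0.15.

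Of the 7 cell cycle genes, 4 were gained. Ing1, a reader of histone methylation, Cul4a, the scaffold of a ubiquitin ligase, and Tfdp1, the partner of E2F factors, lie in the core with Irs2. Cdt1, which licenses replication origins, lies in the far end with Fanca. Rbl2, a relative of the retinoblastoma protein, was not gained in any T1 cell, had a T1 level of 0.15 and lay in a lost segment in 2 of 48 T7 cells and 1 of 50 T9 cells.

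The remaining lists held fewer gained genes. Of 11 matrix and cell adhesion genes, Col4a1 and Col4a2, neighbouring genes for basement membrane collagen, were gained in 22 of 47 T1 cells, and the lowest, Adam9, a membrane protease, was at 0.15. Of 6 cytokine and antigen presentation genes, Tnfsf13b, the B cell survival factor BAFF, was also gained in 22 of 47 T1 cells, and the other 5, among them Il15, a cytokine for NK and T cells, were all at 0.15. Of 11 transcription factor genes, 3 were gained, all in the far end. They were Maf, a leucine zipper factor, in 15 of 47 T1 cells at 0.23 ± 0.15 (SD, n = 47 cells), and Irf8, a factor of myeloid cells, and Foxf1, a factor of lung mesenchyme and vessels, both in 18 of 47 cells. The lowest was Klf2, a factor of endothelial cells and lymphocytes, at 0.15. Of 8 oxidative stress and metabolism genes, Egln1, an oxygen sensor that marks HIF for degradation, was gained in 18 of 47 T1 cells, and the lowest was Hmox1, haem oxygenase 1, at 0.15. None of 4 chromatin genes was gained, with Smarca5, a nucleosome remodeller, at 0.15 and Nsd3, a histone methyltransferase, at 0.15.

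Gene content did not track the level closely along the chromosome. Over the 248 bins outside the 4 high ones, Spearman's rho between the number of genes listed in a bin and its median level was -0.19 for T1, 0.02 for T7 and 0.14 for T9, values that describe neighbouring bins of the same libraries. As a whole chromosome, chromosome 8 had a median level of 0.19 for T1, -0.01 for T7 and 0.04 for T9, and no cell had all of it called gained or lost. Its SD over cells as a whole ranked 13th of 19 autosomes in T1, 18th in T7 and 19th in T9. In T1 the wide spread of chromosome 8 was thus found in its start and not in its whole-chromosome level.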

How the data were processed

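Genomic DNA of single cells was sequenced, and 1 column per cell was mapped to its tumour through the labels. The submitters' processing notes name BWA 0.7.17 and the build GRCm38. The deposited depth table holds the coverage signal of each bin. The deposited log2 ratio table holds a log2 value per bin and cell, and the deposited weight table holds a score per bin. For both, the tool and reference were not given in the sources used here.

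Bins were kept with values in at least 80% of cells. Noise was the scaled median absolute difference between adjacent autosomal bins (scale 1.4826, over the square root of 2). Cells over a limit of 0.267, which is 3 scaled deviations above the median, were dropped (3 of T1, 2 of T7, 0 of T9). Chromosomes were segmented per cell by optimal partitioning on squared residuals. Each break cost 3 times the squared noise times the natural log of the bin number, and segments held 5 bins or more. Recurrent regions are runs of bins called in 20% or more of the cells of a tumour, and a cell carries it where over 50% of its bins are called. A level is the median over bins. Breaks within 5 bins count as 1 position. The segmentation was also run on steps planted in shuffled residuals of the chromosome 8 bins. Shuffling removes any correlation between neighbouring bins, so that run cannot give the rate of false breaks in these data. The ratio from depth took log2 depth over the cell's autosomal median, less the median of the tumour medians in each bin. Python 3.11.15, numpy 2.4.6, pandas 2.3.3, scipy 1.17.1 and numba 0.67.0 were used. The members and gene lists were chosen with earlier results of these data known. Listed genes called in 20% or more of cells were named, and per list the highest and the lowest, up to 30 genes with T1 first. Gene positions were taken from RefSeq on GRCm38.p6, with 69 of 69 found. Names of cells are the numbers of their labels. A further engineered allele that the labels give for all 3 tumours is not reported here. The alternatives are named in the closing section.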

Additional observations from a re-analysis of the deposited data

How the results depend on the processing

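Of 418 comparisons of a main result with an alternative, 359 stayed and 59 moved. Staying meant within 1 SD over cells or within the counting interval. For counts of bins and mean breaks it meant within 1.5 times. Among the levels, 5 near 0 in T7 and T9 (at most 0.04 in the main setting) changed sign within 1 SD. Gains and losses were counted separately, so a change of direction was not assessed for them. For single genes 166 of 259 stayed. The cause of the movements was not tested. With looser thresholds (0.2 and -0.25), the start and middle of T1 were gained in 74.5% and 12.8% of cells, the end in 65.96%, the start stretch in 65.96%, the island in 44.7%, the far-end stretch in 65.96%, and 129 bins were recurrently gained. With stricter ones (0.45 and -0.7), the T1 end was gained in 2.13%, the start stretch in 29.8%, the far-end stretch in 4.26%, the T9 middle in 0%, and 32 bins were gained. From depth, the T1 end was at 0.58 and gained in 83.0%, the T7 end in 10.4%, the start stretch, island and far end in 25.5%, 4.26% and 83.0%, 115 bins were gained, T1 cells had 8.57 breaks (97.9% with a break) and T7 cells 2.31. Centring on the mode gave 12.8% for the T1 end, 17.02% for the far-end stretch and 41 bins. Windows of 10 Mb and 30 Mb gave 48.9% and 10.6% for the T1 end.

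Breaks moved most. At penalty factor 2 the means were 4.72 for T1, 2.92 for T7 (87.5% of cells with a break) and 3.98 for T9 (96%). At factor 5 they were 1.40 for T1 (51.1%), 0.19 for T7 (8.33%) and 0.46 for T9 (24%), the island and far end were gained in 10.6% and 14.9%, and 37 bins were gained. With segments of at least 10 Mb the means were 1.32 for T1, 0.35 for T7 (20.8%) and 0.72 for T9 (36%), and the island was gained in 2.13%. Without bins alike in all tumours, the means were 0.46 in T7 (20.8%) and 0.98 in T9 (42%). Without the tenth of bins with the lowest weights they were 0.54 in T7 (31.2%) and 0.66 in T9 (36%). Without the 4 bins that read high in every tumour, an alternative added after seeing the data, they were 0.48 in T7 (22.9%) and 0.98 in T9 (42%). No main result moved with all cells kept, a noise limit of 1 scaled deviation, means weighted by the deposited weight or segments of at least 3 bins. A bin held 11.3 to 20.6 kb of sequence in the median cell, and segments under 5 bins could not be called by construction. No paired analysis was possible because the cells carry no shared replicate numbers.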
